A study of Mus musculus with 32 samples.

Results

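The messages of 10 mouse tubulin genes were followed in the dendrites and in the cell body (soma) of the same individual neurons. The genes were taken by name from the deposited 3′UTR and exon counts, and they are 10 of the 44081 genes in the 3′UTR table. Of these, 4 encode alpha-tubulins (Tuba1a, Tuba1b, Tuba1c and Tuba4a) and 6 encode beta-tubulins (Tubb2a, Tubb2b, Tubb3, Tubb4a, Tubb4b and Tubb5). Reads of all 10 were present, and 9 of the 10 had reads in 16 or more of the 32 libraries in the 3′UTR table and were tested there (the exception was Tuba1c), while all 10 were tested in the exon counts.

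The libraries came from 16 hippocampal neurons of C57BL/6 mice, taken at embryonic day 18 and kept in culture for 15 days. The dendrites of each neuron were cut away with a glass micropipette and collected apart from its soma, so that every neuron gave 1 dendrite library and 1 soma library. Polyadenylated RNA was amplified by aRNA, a linear method based on in vitro transcription that yields reads close to the 3′ ends of messages, with 3 rounds for neurons 1 to 4 and 2 rounds for neurons 5 to 16. ERCC spike-in RNA (synthetic transcripts of known amount) was added to neurons 3 to 16 and, by the labels, not to neurons 1 and 2. The neurons are dissociated cultured cells, gathered by the study's methods over several cultures and days, and the labels do not say which neurons shared a culture or an animal. The p-values therefore describe the spread between neurons.

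An alpha- and a beta-tubulin join into the dimer from which microtubules are built, the tracks along which cargo moves through axons and dendrites. Neurons use several genes of each kind: Tuba1a is the main alpha-tubulin of young neurons, Tubb3 is a beta-tubulin used as a neuronal marker, and Tubb2a, Tubb2b, Tubb4a, Tubb4b and Tubb5 are beta isotypes with differing tissue ranges. The new chains are folded by prefoldin and the chaperonin CCT and joined by the tubulin cofactors, and cells tune the stability of tubulin messages to the amount of free dimer through the factor TTC5, which binds the opening residues of the nascent chain.

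The coding sequences of the family are close copies, so the bases around the stop codon are shown for the genes whose reads are hardest to keep apart. In GENCODE release 21 (GRCm38, which is mm10), coding sequences of the alpha members were 85.3 to 98.4% identical over 6 pairs and those of the beta members 82.5 to 96.5% over 15 pairs. The stop codon is in capitals, the bases before it are coding and those after it are the start of the 3′UTR.
Tuba1a: ggagaggaatacTAAattaaatgtcacaag
Tuba1b: ggagaggagtacTAAgtccattccttgagc
Tuba1c: ggtgaggaatatTAActcatgtgctgccat
Tubb2a: gaagatgaggctTGAgaacttctcagatac
Tubb2b: gaggatgaggctTGAgttccccaggccaag
These windows lie in the last exons at chr15:98950019-98950048 (Tuba1a, minus strand), chr15:98931567-98931596 (Tuba1b, minus), chr15:99037995-99038024 (Tuba1c, plus), chr13:34074453-34074482 (Tubb2a, minus) and chr13:34127456-34127485 (Tubb2b, minus). The 3 Tuba1 genes are neighbours on chromosome 15, and Tubb2a and Tubb2b are neighbours on chromosome 13. Of all windows of 75 bases in the coding sequence, 84.4% in Tuba1a, 93.6% in Tuba1b, 84.7% in Tuba1c, 52.5% in Tubb2a and 53.6% in Tubb2b also occurred in another annotated gene on the same strand. No window of 75 bases in the 3′UTR of any of the 10 members did, so 3′UTR reads separate the members better than coding reads.

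The opening bases are shown because they encode the residues that TTC5 reads, with the first 12 bases in capitals.
Tuba1a: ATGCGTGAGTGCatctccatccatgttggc
Tuba4a: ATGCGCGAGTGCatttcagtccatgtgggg
Tubb2a: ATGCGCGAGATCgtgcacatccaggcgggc
Tubb3: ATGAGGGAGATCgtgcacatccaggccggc
The window of Tubb2a is at chr13:34077900-34077929 (minus strand) and that of Tubb3 at chr8:123411606-123411635 (plus strand), each within 1 exon. Those of Tuba1a and Tuba4a are joined across the first intron. Alpha and beta members differ in the last of the capital codons.

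Dendrite libraries held 646521 to 6954420 reads on 3′UTRs and soma libraries 925525 to 21169974. The summed level of 5 neuronal markers (Map2, Snap25, Syt1, Nefl and Stmn2) was alike in both compartments, with medians of 7522 CPM (counts scaled to library size) in dendrites and 7786 CPM in somas. The summed level of 6 astrocyte markers had a median of 66.1 CPM in dendrites (0 to 665) and 13.7 CPM in somas (0 to 148), with Gfap, Aldh1l1 and S100b at a median of 0 in both. The sums of the 5 oligodendrocyte markers (medians 8.30 CPM in dendrites and 1.59 CPM in somas) and of the 5 endothelial markers (8.27 and 0.621 CPM) were also higher in dendrites. Each of the 5 microglial markers had a median of 0 in both compartments, though their sum reached 384 CPM in dendrites and 7.90 CPM in somas. The part that other cells or the mitochondrial reads (a median of 13.5% of 3′UTR-table reads in dendrites and 1.05% in somas) have in the results was not tested. All CPM values are scaled by the TMM method, which assumes that most genes do not differ.

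Together the 10 members took 0.322 to 5.09% of the 3′UTR reads of a dendrite library (median 0.878%) and 0.590 to 4.32% of those of a soma library (median 0.993%). The tubulin total was higher in dendrites in 8 neurons and higher in somas in 8. On exons it was higher in dendrites in 9 neurons and in somas in 7. In 4 neurons the dendrites gave about 0.5 times the part that the soma gave, namely neuron 2 (2.07% against 4.32%), neuron 13 (0.623% against 1.34%), neuron 15 (0.322% against 0.590%) and neuron 16 (0.568% against 1.13%).

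Among alpha-tubulins, Tuba1a took more reads than any other of the 10 members in all 32 libraries. Its 3′UTR level was 3116, 5957 and 58732 CPM (lowest, median and highest) in dendrites and 2498, 4807 and 29079 CPM in somas. The ranges overlapped, and the dendrites were higher in 11 of 16 neurons, with a median ratio of dendrites to soma of 1.28. In the paired edgeR quasi-likelihood fit over 10880 genes, the log2 fold change of dendrites over soma was 0.33 (SE 0.27, adjusted p = 0.395), which did not pass the threshold of 0.05. In the exon counts the dendrites were higher in 13 of 16 neurons and the difference passed it (edgeR, log2 fold change 0.79, SE 0.25, adjusted p = 0.0449), against a background of 1.00% of the 9804 genes tested there. Tuba1a had nearly the same reads in both kinds of count (903630 on 3′UTRs and 903646 on exons), so the exon result is not an independent one. With spike-in scaling the sign for Tuba1a turned in both kinds of count, as given further on. The exon call was lost when any neuron other than neuron 15 was left out (log2 fold changes 0.41 to 0.73), and DESeq2 on the same exon counts did not make it (0.23, SE 0.29, adjusted p = 0.505).

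Tuba1b, an alpha-tubulin present in most tissues, could be read only from exons. Its row in the 3′UTR table held 242 reads over all 32 libraries, against 165569 reads on its exons. A row of the 3′UTR table named AK196308, singled out after its values were seen, held 146177 reads, which in each library were 82.8 to 97.2% of the Tuba1b exon reads, with a Pearson correlation of 0.999 across libraries on the log2 scale. The position of that row is not stated in the files, and the exon files have no such row.

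On exons Tuba1b stood at 325, 1479 and 4046 CPM in dendrites and 310, 890 and 1847 CPM in somas. The dendrites were higher in 12 of 16 neurons, and 7 dendrite libraries lay above every soma. The difference did not pass the test (edgeR on exon counts, log2 fold change 0.64, SE 0.43, adjusted p = 0.336). For the AK196308 row the log2 fold change was 0.20 (SE 0.43, adjusted p = 0.765), with 11 of 16 neurons higher in dendrites.

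Tuba1c, the closest relative of Tuba1b in coding sequence among the members, had 3′UTR reads in 8 of the 32 libraries and was not tested there. The dendrites of neuron 1 held 92 reads (123 CPM), those of neuron 10 held 204 (118 CPM), those of neuron 11 held 259 (52.2 CPM) and those of neuron 2 held 11 (14.5 CPM). No soma library held more than 2 such reads. The somas of neurons 10 and 11 held none, so that the dendrites were at least 522-fold and 192-fold higher than the level that 3 reads would give in those somas. Every dendrite library had exon reads of Tuba1c (1.02, 8.14 and 198 CPM), as did every soma library (0.503, 2.21 and 8.19 CPM), and the dendrites were higher in 14 of 16 neurons. The difference did not pass in edgeR (log2 fold change 2.10, SE 1.25, adjusted p = 0.274) and passed in DESeq2 (1.59, SE 0.62, adjusted p = 0.0242; background 3.68%). Most of its coding windows also occur in Tuba1a or Tuba1b, so its low exon counts are uncertain.

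Tuba4a, an alpha-tubulin whose chain lacks the encoded final tyrosine, stood at 0, 273 and 1241 CPM in dendrites and 70.4, 289 and 978 CPM in somas. The ranges overlapped, and the dendrites were higher in 7 of 16 neurons (log2 fold change -0.45, SE 0.70, edgeR adjusted p = 0.660). Its annotated 3′UTR lies almost wholly opposite the gene Stk16, and the authors counted by strand.

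**Figure D1:**
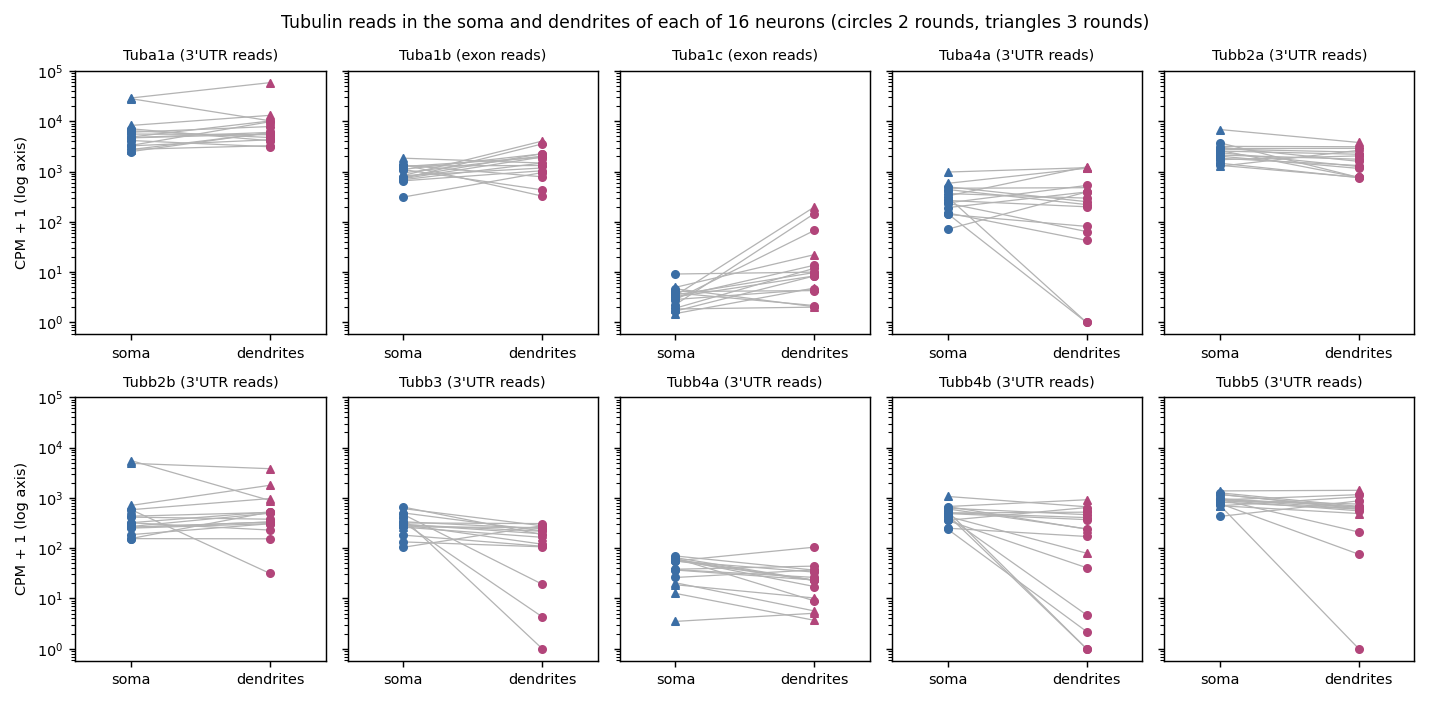
Reads of each tubulin gene in the soma (blue) and dendrites (magenta) of the 16 neurons, as CPM + 1 on a log axis, with a grey line joining the compartments of a neuron (circles, 2 rounds; triangles, 3 rounds). Tuba1b and Tuba1c are drawn from exon counts. Tubb3 is lower in the dendrites than in the soma in 15 of 16 neurons, and single dendrite libraries of Tuba4a, Tubb3, Tubb4b and Tubb5 sit at 0 CPM.

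Among beta-tubulins, CPM was higher in the soma than in the dendrites in most neurons for 5 of the 6 members under TMM scaling, though centring on the median gene turned the fitted direction of 4 of the 5 (all but Tubb4b). Tubb2a, the most abundant of them, stood at 755, 1678 and 3792 CPM in dendrites and 1275, 2472 and 6864 CPM in somas. The soma was higher in 13 of 16 neurons and 6 dendrite libraries lay below every soma, but the ranges overlapped. The log2 fold change of dendrites over soma was -0.57 (SE 0.35, edgeR adjusted p = 0.250). On exons the soma was higher in 10 of 16 neurons, and the medians were 2435 CPM in dendrites and 2414 CPM in somas. The exon log2 fold change was -0.13 (SE 0.35, edgeR adjusted p = 0.825).

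Tubb3 stood at 0, 189 and 307 CPM in dendrites and 103, 306 and 656 CPM in somas. The soma was higher in 15 of 16 neurons, the exception being neuron 12. The log2 fold change was -1.24 (SE 0.70, edgeR adjusted p = 0.215).

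Tubb4b, a beta-tubulin also used in cilia, had the largest fitted difference of the beta members under TMM scaling, though not after centring on the median gene. It stood at 0, 240 and 917 CPM in dendrites and 239, 493 and 1067 CPM in somas, with 8 dendrite libraries below every soma. The soma was higher in 13 of 16 neurons (log2 fold change -1.85, SE 0.79, edgeR unadjusted p = 0.0225, adjusted p = 0.114).

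Tubb5, a broadly used beta isotype, stood at 0, 621 and 1414 CPM in dendrites and 427, 904 and 1375 CPM in somas. The soma was higher in 12 of 16 neurons (log2 fold change -0.80, SE 0.54, edgeR adjusted p = 0.290). Tubb4a, a beta isotype best known from oligodendrocytes and the brain, was low, at 2.68, 22.0 and 104 CPM in dendrites and 2.50, 45.7 and 69.0 CPM in somas. The soma was again higher in 12 of 16 neurons (log2 fold change -0.93, SE 0.86, edgeR adjusted p = 0.446).

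Tubb2b, a beta isotype of developing neurons and the near twin of Tubb2a in coding sequence, went the other way in most neurons. It stood at 30.4, 435 and 3804 CPM in dendrites and 154, 319 and 5514 CPM in somas, and the dendrites were higher in 10 of 16 neurons. The log2 fold change was 0.10 (SE 0.47, edgeR adjusted p = 0.895). On exons the dendrites were higher in 14 of 16 neurons for Tubb2b. The soma was higher there in 10 of 16 neurons for Tubb5 and in 12 of 16 for Tubb3, Tubb4a and Tubb4b.

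In all, 0 of the 9 tested members were called in either direction by edgeR, against a background of 0.827% of all tested genes called higher in dendrites and 5.71% called higher in somas. Without adjustment, 1 of the 9 members (Tubb4b) had a p under 0.05 and was lower in dendrites, against 26.7% of all genes. DESeq2 with the same pairing called 4 of 9 members lower in dendrites, against a background of 46.2%, and 0 higher (background 4.26%). These were Tubb2a (-0.83, SE 0.32, adjusted p = 0.0246), Tubb3 (-1.50, SE 0.56, adjusted p = 0.0183), Tubb4a (-1.16, SE 0.41, adjusted p = 0.0118) and Tubb4b (-2.17, SE 0.67, adjusted p = 0.00416). An exact two-sided sign-flip test of the per-neuron log2 CPM differences over all genes called the 4 genes Tubb2a, Tubb3, Tubb4a and Tubb4b (adjusted p from 0.0203 to 0.0432), against a background of 21.0%, and 0 genes of the family in the other direction (background 3.28%). Without the pairing edgeR called 0 members, with backgrounds of 1.44% towards dendrites and 0.708% towards somas. Neither DESeq2 nor the sign-flip test called an alpha member of the 3′UTR table. In exon counts DESeq2 again called Tubb2a, Tubb3, Tubb4a and Tubb4b lower (background 46.5%), while edgeR called 0 members lower (background 2.62%).

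The fitted direction of 8 of the 9 tested members depended on what the libraries were scaled to, and Tubb4b alone was lower in dendrites under TMM, centred and spike-in scaling. Over all 10880 genes the median log2 fold change of dendrites over soma was -1.49 under TMM, and 8 of the 9 tested members lay above that median, Tubb4b being the exception. That median depended on the fit. Without the neuron block it was -0.22, with 2 of 9 members above it. With no filter beyond 1 read in 1 library it was -0.17, with 3 of 10 above it. The centring that follows rests on the median of -1.49. After dendrite libraries were rescaled to bring the median gene close to 0, edgeR called Tuba1a (log2 fold change 1.82, SE 0.24, adjusted p = 2.68e-07) and Tubb2b (1.59, SE 0.46, adjusted p = 0.0287) higher in dendrites, against a background of 5.04%, and called 0 members lower (background 0.846%). In exon counts rescaled in that way it called Tuba1a, Tuba1b, Tubb2a and Tubb2b higher, against a background of 4.44%. The higher calls made up 85.6% of all calls after this centring and 12.7% before it.

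Scaled instead to the ERCC spike-in in neurons 3 to 16, all 9 tested members were called lower in dendrites, against a background of 61.4%, and in exon counts 9 of 10 were (all but Tuba1c, background 62.7%). Their log2 fold changes ran from -2.08 (Tuba1a, SE 0.63, adjusted p = 0.00506) to -4.69 (Tubb4b, SE 1.14, adjusted p = 0.000973). The median gene stood at -3.96 on this scale. The amount of dendrite collected and the amount of message per dendrite cannot be told apart in these libraries.

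**Figure D2:**
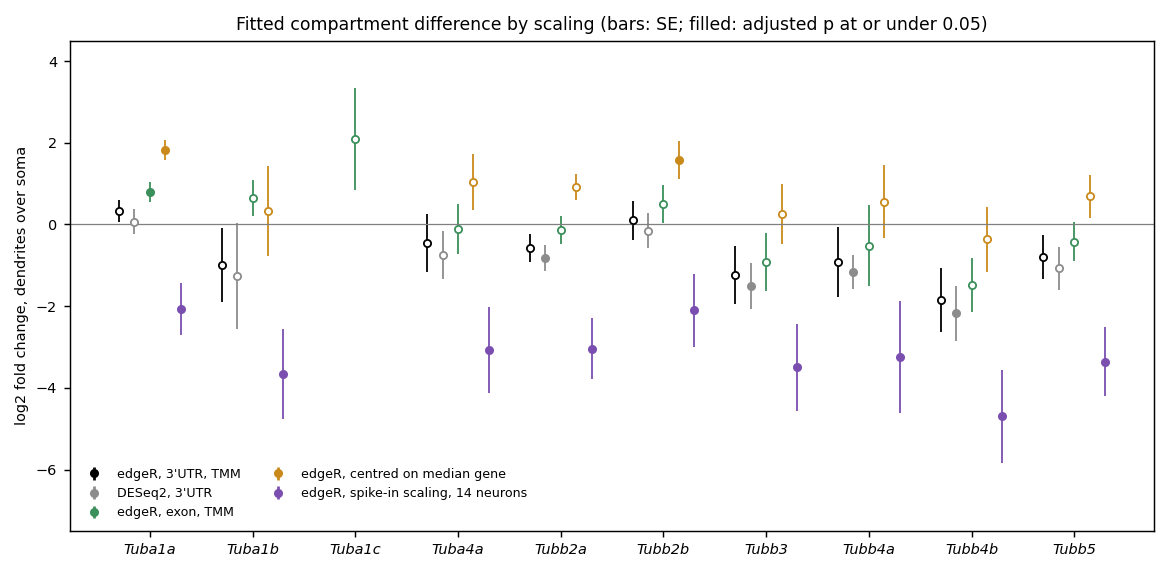
Fitted log2 fold change of dendrites over soma for each member under 5 fits (bars, SE; filled points, adjusted p at or under 0.05). The spike-in fit places all 9 tested members below 0, from -2.08 to -4.69, while centring on the median gene places Tuba1a at 1.82 and Tubb2b at 1.59.

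A share of the tubulin reads within a library does not depend on any scaling between libraries, and it was higher in dendrites for Tuba1a and lower there for most beta members. Tuba1a took 51.7, 65.5 and 84.7% (lowest, median and highest) of the 3′UTR reads of the 10 members in dendrites and 41.0, 52.3 and 71.3% in somas. The mean share was 65.7% ± 8.93 (SD, n = 16) for dendrites against 51.9% ± 8.67 for somas. In 14 of 16 neurons the dendrites had the larger share, and the mean difference was 13.8 ± 11.6 percentage points. The ranges overlapped. No test was applied to the shares, because the parts of a whole move against each other.

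Most beta members took a smaller share of tubulin reads in dendrites than in somas. Tubb2a took 16.0% ± 5.98 (SD, n = 16) of the tubulin reads in dendrites against 22.9% ± 6.59 in somas, where its share was larger in 14 of 16 neurons. Tubb4b took 2.27% ± 2.25 in dendrites and 4.68% ± 1.68 in somas (14 of 16 neurons higher in somas), and Tubb5 took 5.99% ± 3.63 and 9.03% ± 3.14 (12 of 16). Tubb3 took 1.59% ± 1.17 and 3.19% ± 1.61 (11 of 16 higher in somas). Tubb4a took 0.314% ± 0.345 and 0.447% ± 0.277 (12 of 16 higher in somas). The shares of Tubb2b (5.02% ± 2.62 in dendrites, 4.89% ± 3.49 in somas) and Tuba4a (2.89% ± 2.70 and 3.00% ± 1.95) were closer. Of these members, the mean difference per neuron was smaller than its SD for Tubb2b, Tuba4a, Tubb4a, Tubb3, Tubb4b and Tubb5, and was about equal to it for Tubb2a (-6.81 ± 6.81 points).

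With exon counts, where Tuba1b is counted, the 4 alpha members together took 57.9, 70.8 and 87.2% of the tubulin reads in dendrites and 44.1, 58.2 and 74.1% in somas. The alpha share was higher in dendrites in 14 of 16 neurons, by 13.1 ± 11.4 percentage points (mean and SD, n = 16), close to the 13.9 ± 11.3 of the 3′UTR counts. The Tuba1b share itself was 9.78% ± 5.56 in dendrites and 9.18% ± 5.07 in somas, and the Tuba1a share differed by 12.4 ± 10.8 points.

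The alpha share was higher in dendrites in most neurons of both amplification groups. In the 12 neurons of 2 rounds the 3′UTR alpha share was higher in dendrites in 11, by 15.8 ± 10.9 percentage points, and in the 4 neurons of 3 rounds it was higher in 3, by 7.93 ± 11.9. The Tubb2a share was lower in dendrites in all 12 neurons of 2 rounds and in 2 of the 4 of 3 rounds. Without the 6 neurons whose dendrites exceeded every soma in the astrocyte marker sum (neurons 1, 3, 5, 6, 8 and 9), the alpha share was higher in dendrites in 8 of 10 neurons, by 13.7 ± 14.0 points. Without neurons 13, 15 and 16, in which a member was at 0 reads in dendrites against at least 100 reads in the soma, it was higher in 11 of 13, by 12.2 ± 11.4 points.

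**Figure D3:**
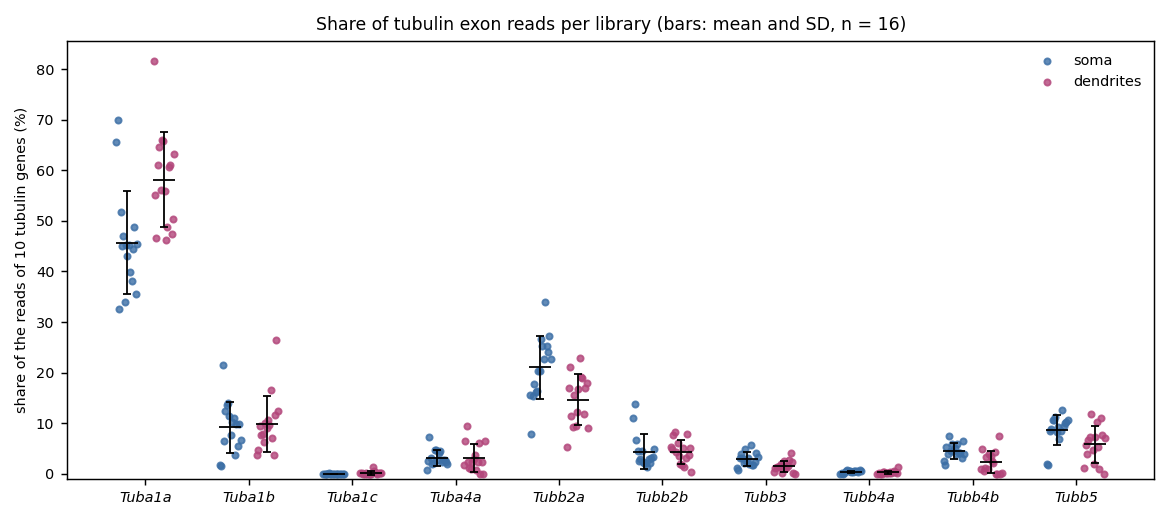
Share of each gene in the exon reads of the 10 tubulin genes, in percent, for the 16 soma (blue) and 16 dendrite (magenta) libraries; black bars give the mean and SD. The mean for Tuba1a is 58.2% in dendrites and 45.7% in somas, and that for Tubb2a is 14.7% in dendrites and 21.1% in somas.

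The ratio of Tuba1a to Tubb2a, the alpha and the beta member with the most reads, was higher in dendrites in all but 1 neuron. In 3′UTR reads it was 2.09, 3.78 and 15.5 (lowest, median and highest) in dendrites and 1.17, 2.12 and 8.88 in somas. It was higher in dendrites in 15 of 16 neurons, with a mean log2 change of 0.90 ± 0.87 (SD). The median neuron had a ratio 2.07 times higher in its dendrites than in its soma, and the neuron that went the other way was neuron 2, which had 3 rounds of amplification.

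**Figure D4:**
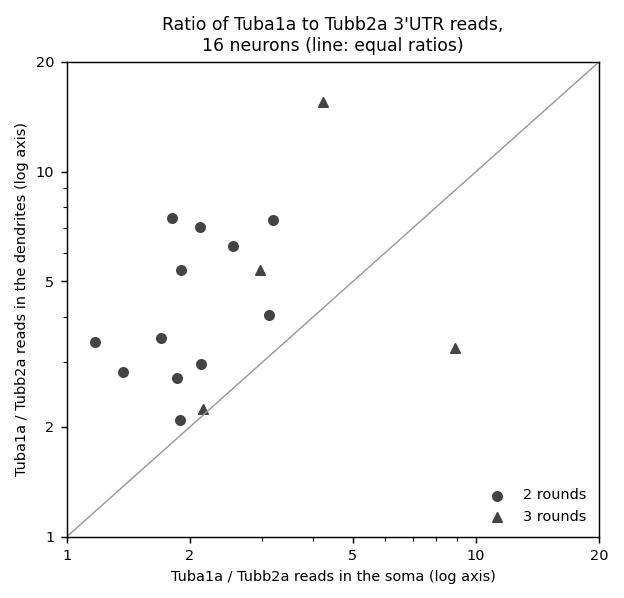
Ratio of Tuba1a to Tubb2a 3′UTR reads in the soma (x axis) and dendrites (y axis) of each of the 16 neurons, both on log axes (circles, 2 rounds; triangles, 3 rounds), with a line of equal ratios. In 15 neurons the point lies above the line, and the 1 point below it is a neuron of 3 rounds.

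Several members were missing outright from single dendrite libraries whose somas held 1338 to 7141 of their reads. Tubb4b had 0 reads in the dendrites of neurons 13 and 15 against 7141 and 4198 reads in their somas. Tuba4a had 0 in the dendrites of neurons 13 and 15 against 4102 and 1338. Tubb5 had 0 in the dendrites of neuron 15 against 6633, and Tubb3 had 0 in those of neuron 16 against 4259.

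A count of 0 allowed up to 2.43 CPM in the dendrites of neuron 13, 1.99 CPM in those of neuron 15 and 2.22 CPM in those of neuron 16, taking 3 reads as the limit, for counting error only. On that limit the soma was at least 224-fold higher for Tubb4b in neuron 13, at least 229-fold in neuron 15, at least 129-fold and 73.0-fold for Tuba4a in those 2 neurons, at least 362-fold for Tubb5 and at least 175-fold for Tubb3. The dendrites of neurons 15 and 16 had the highest mitochondrial shares of all dendrite libraries (35.8% and 32.4%), those of neuron 15 the most spike-in reads (283471), and those of neuron 13 the highest microglial marker sum (384 CPM), and the part of these in the missing reads was not tested. Tuba1a, Tubb2a, Tubb2b and Tubb4a had 3′UTR reads in all 32 libraries. Loss of a message during amplification and its absence from the dendrites cannot be told apart here.

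For the 8 members with ample 3′UTR reads, the dendritic part of the reads varied less from neuron to neuron than for most genes. The dendritic read fraction of a gene in a neuron is its dendrite count divided by the sum of its dendrite and soma counts, after scaling each library by its median-of-ratios size factor. It averaged 0.512 ± 0.104 (SD, n = 16) for Tuba1a, with 0.255 as the lowest and 0.698 as the highest neuron. Next came Tubb2b (0.477 ± 0.194), Tuba4a (0.400 ± 0.233), Tubb2a (0.367 ± 0.105), Tubb5 (0.347 ± 0.175), Tubb4a (0.325 ± 0.153), Tubb3 (0.302 ± 0.185) and Tubb4b (0.258 ± 0.211). Over 10331 genes with at least 5 usable neurons, the median of the mean fraction was 0.335 and the median SD was 0.323.

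Of those genes, 0.726% had a smaller SD than Tuba1a and 0.784% a smaller SD than Tubb2a, and 17.0% had a smaller SD than Tuba4a. How far these ranks follow from the number of reads was not tested. Neighbouring members in the order of mean fractions differed by less than the SD of either.

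Set per kilobase of annotated exon, the order of the members was led by the same 3 genes in both compartments. In dendrites the medians were 4342 CPM per kilobase for Tuba1a, 1513 for Tubb2a and 789 for Tuba1b, and in somas 2479, 1499 and 475. Tuba1a exceeded Tubb2a in 16 of 16 libraries of each compartment. Below them in somas came Tubb5 (296), Tubb4b (235), Tubb3 (162), Tubb2b (125), Tuba4a (96.7), Tubb4a (22.2) and Tuba1c (0.966 CPM per kilobase). In somas the neighbours Tubb5 and Tubb4b, Tubb3 and Tubb2b, and Tubb2b and Tuba4a differed by less than the spread over libraries, and in dendrites every neighbouring pair from Tuba1b downwards did. Reads of this method gather near 3′ ends, so values per kilobase give only a rough order between genes.

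The dendrite-to-soma differences of the members moved together only loosely over the 16 neurons. Spearman correlations of the per-neuron log2 CPM differences ran from -0.39 to 0.62 over 28 pairs of the 8 well-read members, with a median of 0.16. Outside the family, the genes whose differences were most like those of Tuba1a were Gm12778 (Spearman 0.82), Naf1 (0.81) and Cxx1c (0.80), and those most like Tubb2a were Mtfr1l (0.87), Psma2 (0.86) and Bmyc (0.79). Gm12778 had reads in only 22 of 32 libraries and Naf1 in 19. These correlations are the highest among all tested genes, and whether they exceed chance was not tested. The compared libraries share their depth and scaling, so these are descriptions over 16 neurons. The compartment difference was also compared between 3 and 2 rounds of amplification for each tested member by an interaction term in edgeR. The adjusted p was 1 for all 9, the smallest unadjusted p was 0.243 (Tuba4a), and 0 of the 10880 genes were called (0.00% of the tests).

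Alternative 3′ ends could be compared for 3 members, Tubb2b, Tubb4b and Tubb5. The fraction of reads on the higher-numbered of the top 2 ends was tested over neurons with at least 10 reads on both ends together in each compartment, by an exact two-sided signed-rank test. In Tubb2b nearly all reads lay on end 2 in both compartments (0.988 ± 0.0444 in dendrites and 1.00 ± 0.000427 in somas, n = 16, p = 0.25, adjusted p = 1). The fraction was lower in dendrites in 3 neurons and higher in 0, and the others tied. With so few untied neurons the test could not give a p under 0.25, so it cannot decide. In Tubb4b nearly all lay on end 1, with 0.00440 ± 0.0136 of reads on end 2 in dendrites and 0.000675 ± 0.00115 in somas (n = 12, p = 1). In Tubb5 the fraction was 0.519 ± 0.430 in dendrites and 0.663 ± 0.345 in somas (n = 8, exact p = 0.375, adjusted p = 1), but its 3 end features together held only 2.45% of its 3′UTR reads. Across all 3522 genes tested in this way 0 were called (0.00%), and the files do not say which end is nearer the stop codon.

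Genes that fold, join, modify and cut tubulin were read in both compartments, and 1 of them passed the test. Of 70 such genes, 67 were in the 3′UTR table and 51 were tested. By edgeR 0 passed the threshold towards dendrites (background 0.827%) and 1 passed it towards somas (background 5.71%). Without adjustment, 15 of the 51 had a p under 0.05, all lower in dendrites, as were 26.7% of all 10880 genes. Over the 51 genes the median log2 fold change was -1.71, against -1.49 over all genes tested. This count depended on the test as well as the scaling, as did that of the members (4 lower in dendrites with DESeq2, 0 in edgeR with median-of-ratios scaling). DESeq2 called 28 pathway genes higher in somas (background 46.2%). In edgeR, median-of-ratios scaling called 7 (background 9.26%), centring called 0 (background 0.846%) and spike-in scaling called 38 (background 61.4%). Leaving out 1 neuron gave 0 to 4 such calls, and only neurons 6 and 8 could be left out without changing the count.

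The called gene was Cct8, a subunit of the chaperonin CCT that folds tubulin and actin. Its median was 85.2 CPM in dendrites and 342 CPM in somas, and the soma was higher in 16 of 16 neurons (log2 fold change -2.38, SE 0.77, edgeR adjusted p = 0.0491). Of the other chaperonin subunits, Cct7 stood at -3.17 (SE 1.03, adjusted p = 0.0507), and 5 of the 8 subunits were lower in dendrites at an unadjusted p under 0.05, a cut that 26.7% of all genes passed in that direction. Among the cofactors, Tbcc, which acts on the assembled dimer, stood at -4.28 (SE 1.39, adjusted p = 0.0502) and Tbce at -2.90 (SE 1.43, adjusted p = 0.162), with 0 of 7 called. The median over the 7 cofactors was -1.12, and 5 of the 7 lay above the median of all genes.

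In prefoldin, which hands new chains to CCT, Vbp1 stood at -2.65 (SE 0.99, adjusted p = 0.0785) and Pfdn4 at -1.62 (SE 1.05), with 0 of 5 called. The median over the 5 prefoldin genes was -0.32, and 3 of the 5 lay above the median of all genes. Among the tubulin-modifying enzymes, 0 of 18 were called, led by Ttll12 at -4.98 (SE 1.64, adjusted p = 0.0529) and Ttll7, a polyglutamylase, at -2.04 (SE 0.76, adjusted p = 0.0797). Of the severing enzymes 0 of 4 were called, and Spast stood at -3.27 (SE 1.36, edgeR adjusted p = 0.108). Of the gamma-tubulin ring, which seeds microtubules, 0 of 6 were called (Tubgcp5 at -2.45 and Mzt1 at -1.84).

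Of the 11 other tubulins listed only Tubg1 (-3.94, SE 1.89, adjusted p = 0.151) and Tubg2 (-0.19, SE 1.34) had enough reads for a test. Ttc5, the autoregulation factor, had reads in 7 dendrite and 14 soma libraries and stood at -1.97 (SE 1.67, edgeR adjusted p = 0.405).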

How the data were processed

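The authors aligned the reads to mm10 with STAR (version 2.4.0 in the submitters' notes) and counted them by strand with VERSE, and they deposited raw read counts per gene on the union of its 3′UTRs, per 3′ end, on exons and on spike-ins. Samples were grouped by the labels into dendrites and somas, 16 each, and paired because both libraries of a number came from the same cell. As a check, deviations from the group means correlated by -0.017 to 0.24 within neurons (median 0.066). Between different neurons they correlated by -0.18 to 0.25 (median -0.0038). Only 9 of 16 dendrites correlated best with their own soma, so the check is weak. Of 240 pairs of libraries within a group, 0 held identical values.

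From the counts, edgeR 4.0.16 (R 4.3.3; TMM, robust quasi-likelihood, compartment with neuron as block, at least 1 read in at least 16 libraries) gave log2 fold changes, with Benjamini-Hochberg adjustment over all genes tested and a threshold of 0.05. The fit was also run on simulated data with 200 changed genes. Its power at effects as small as those of the members is not given here. Alternatives were DESeq2 1.42.0, other scalings, filters and features, no block, subsets of neurons, and an exact sign-flip test. Sequences came from GENCODE release 21 transcripts. All 10 members were named, with called pathway genes, the 2 of smallest p per list, and the 3 genes most like the top alpha and beta member. One gene that this rule names is not reported here. The members and lists were chosen with earlier results of these data known. Limits from counts of 0 cover counting error only.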

Additional observations from a re-analysis of the deposited data

Results flagged for a closer look

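Among the 4 neurons with 3 rounds of amplification, 3 of 20 values had 1 library standing far from the other 3 by the gap to its nearest neighbour, a criterion that chance meets in about 1 in 20 groups. The dendrites of neuron 1 held the highest Tuba1a level, 58700 CPM, against 5900 to 13100 CPM in the other 3. The dendrites of neuron 1 also held the highest Tuba1c 3′UTR level, 123 CPM, against 0 to 14.5 CPM. The dendrites of neuron 4 held the lowest Tuba4a level, 478 CPM, against 1160 to 1240 CPM.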

How the results depend on the processing

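Of the log2 fold changes recomputed under alternatives, 242 kept their direction and side of the threshold, 25 reversed, 20 passed the threshold only under the alternative and 18 no longer passed it. The tally leaves out some refits of exon counts. Among members only Tuba1a in exon counts had been called under TMM, so keeping a side mostly meant staying uncalled. That call was lost with DESeq2, with either amplification group alone and without any neuron but neuron 15. Members called higher in dendrites numbered 0 with TMM, 2 with centring and 1 in exon counts, and members called higher in somas numbered 4 with DESeq2, 9 with spike-in scaling and 4 with the sign-flip test. In exon counts, where the further alternatives were chosen after seeing the data, centring gave 4 higher in dendrites, spike-in scaling and either amplification group alone gave 0, and leaving out 1 neuron gave 0 to 1; spike-in scaling gave 9 and DESeq2 4 higher in somas. Pathway genes called higher in somas numbered 28 with DESeq2, 7 with median-of-ratios scaling, 38 with spike-in scaling, 14 with the sign-flip test, 0 with centring, no filter, a filter of 10 reads, or 3 rounds only, and 0 to 4 when 1 neuron was left out. Higher calls were 67.1% of all calls without the block, 0.239% with spike-in scaling and 27.6% in exon counts.

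Without the replicate block, 0 pathway genes and 0 members were called, and Tuba4a (0.28) and Tubb2b (-0.40) reversed. Centring reversed Tuba1b (0.33), Tuba4a (1.04), Tubb2a (0.92), Tubb3 (0.25), Tubb4a (0.56) and Tubb5 (0.69). With 3 rounds only, Tuba1b (0.87), Tuba4a (0.99), Tubb2a (0.18) and Tubb5 (0.16) reversed, and in exon counts Tuba1b (0.64) did. Spike-in scaling reversed Tuba1a (-2.08) and Tubb2b (-2.10), and in exon counts Tuba1a (-2.08), Tuba1b (-2.49), Tuba1c (-1.19) and Tubb2b (-2.12, from 0.50). With exon counts and 3 rounds only, Tuba4a (1.05), Tubb2a (0.25) and Tubb5 (0.23) were above 0. With exon counts and centring, Tuba4a (1.17), Tubb2a (1.14), Tubb3 (0.36), Tubb4a (0.76) and Tubb5 (0.86) were above 0. With exon counts and DESeq2, Tubb2b (-0.028) was below 0. Tubb2b also reversed with DESeq2 (-0.15), median-of-ratios scaling (-0.15), no filter (-0.0049) and the sign-flip test (-0.0299). Leaving out 1 neuron gave -0.59 to 0.0468 for Tuba4a (reversed without neuron 13 or 15) and -0.0146 to 0.58 for Tubb2b (without neuron 10). It also moved values that kept their sign, to 0.25 to 0.70 for Tuba1a, -0.63 to -0.18 for Tubb2a and -0.93 to -0.32 for Tubb5. In exon counts the dendritic read fraction was 0.625 for Tuba1a, 0.741 for Tuba1c and 0.478 for Tubb2a, and the Tuba1b share difference was 0.60 points. The causes of these changes were not tested.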
